A study of Homo sapiens with 9 samples.

Results

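The genes described here were 39 members of the hypoxia response and of glycolysis, taken by gene symbol from the 18430 genes of the expression table. All 39 were found and all 39 passed the filter on low counts, which kept 13989 genes. They fell into 4 roles: 2 subunits of the hypoxia-inducible factors (HIF), 16 HIF targets outside glycolysis, 15 glycolytic enzymes, and 6 glucose or lactate transporters and kinases that set the flow through glycolysis. CA12 passed the filter only through its control libraries and EGLN3 only through its vemurafenib libraries, so a difference in these 2 genes was needed for them to be tested. Their calls are included in the counts below, but their p-values are not independent tests of a difference.

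RNA was sequenced from 9 libraries of A375, an established human melanoma line whose labelled genotype is BRAFV600E, an activating mutation of the kinase BRAF that all 3 groups carried. The control group (n = 3) was cultured without drug, and no collection day is listed for it. The vemurafenib group (n = 3) was exposed to 10 µM of this inhibitor of mutant BRAF for 3 days, and the cisplatin group (n = 3) to 2 µM of this DNA-crosslinking agent for 1 day. Both drugs were then withdrawn and the cells were harvested on day 7, so dose and exposure differed between the drug groups, and a difference between them is a difference between these schedules. All cells came from 1 line, and the labels leave unsaid whether replicates are separate cultures. The p-values therefore rest on a spread between libraries that may be technical.

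Library totals were 14481020 to 16038475 estimated counts. Of melanocyte markers, SOX10 was at 779 to 1189.9 CPM (normalised read count, scaled per 1e6 counts) across the libraries and MITF at 32.8 to 96.2 CPM, while MLANA and TYR stayed under 1 CPM. The 10 melanocyte markers summed to 1211 to 1405 CPM in control, 1651 to 2078 after vemurafenib and 1593 to 1803 after cisplatin. Of the 7 tested, 3 were called higher and 0 lower after vemurafenib (log2 -0.30 to 11.5 against control). After cisplatin 4 were called higher and 2 lower (log2 -0.44 to 3.17). Over all tested genes 22% were called higher and 22.9% lower after vemurafenib, and 22.7% and 23.5% after cisplatin. Markers of other cell types were low: 6 fibroblast markers summed to 17.1 to 42.1 CPM and 4 keratinocyte markers to 16.1 to 25.4 across all libraries, and 4 blood markers to 4.43 to 9.24 in control and vemurafenib and 32.1 to 52.2 after cisplatin, nearly all of it LYZ, with PTPRC and CD3E near 0. The 4 endothelial markers summed to 3.59 to 5.57 CPM in control, 0.78 to 1.1 after vemurafenib and 3.13 to 5.26 after cisplatin, with CDH5 at or near 0, and 2 of the 3 tested were called lower after vemurafenib. The part of these markers in the results was not tested. Vemurafenib replicate 1 stood apart: the rank correlation across genes of its deviation from the group mean with effective gene length was -0.591, against 0.507 and 0.428 in replicates 2 and 3. Glycolytic enzymes were short genes (median effective length 2255 bases, against 2986 for all tested genes and 2817.5 for HIF targets outside glycolysis), so values are also given without this library, or with the length trend removed, where they turn on it. In bulk RNA, fewer cells of a kind and less RNA per cell cannot be told apart.

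HIF is a pair of proteins, an oxygen-sensitive alpha subunit (HIF1A or EPAS1, also called HIF-2 alpha) and a stable partner, ARNT. With oxygen present, prolyl hydroxylases such as EGLN1 and EGLN3 mark the alpha subunit for destruction through VHL, a step that acts on the protein and not on its mRNA. Without that mark, HIF binds a short DNA core in promoters and enhancers and raises genes for pH control, mitophagy, collagen hydroxylation, glucose uptake and glycolysis. Melanoma cells often keep part of this programme active in normal oxygen, and signalling through mutant BRAF is known to promote glycolysis.

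The HIF core, ACGTG or GCGTG, was searched on both strands in the 300 bases around the first listed RefSeq start of each gene (250 before and 50 from the start on). A promoter was matched for 36 of the 39 members, and not for NDRG1, BNIP3L or SLC2A3. The core occurred in 27 of 36 (75.0%), against 48.4% of all 27305 promoters and 62.3% of the 11320 promoters of tested genes. For ACGTG alone the shares were 41.7%, 21.6% and 26.2%. It occurred in 11 of 14 HIF targets outside glycolysis and 11 of 15 glycolytic enzymes. A match is a description of the letters and not a measured binding site. The stretches below (RefSeq, GRCh38.p14, 5′ to 3′ along the gene) are shown because they hold ACGTG before members with the largest falls after both drugs (CA9, BNIP3, PGK1, ENO2, ALDOC, LDHA), before P4HA1, which also fell after both, or before a member that fell after 1 drug only (BHLHE40, DDIT4). They were chosen after the values were seen. Capitals mark every ACGTG or GCGTG on either strand (CACGT or CACGC when read from the other strand), with overlapping matches merged. The CA9 stretch also lies within an exon of ARHGEF39 on the other strand, chr9:35673898-35673927, plus strand.
CA9: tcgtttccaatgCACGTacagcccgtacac
BNIP3: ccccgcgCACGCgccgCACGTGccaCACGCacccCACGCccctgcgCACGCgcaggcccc
P4HA1: ggtgtgatcgagctCACGTagcgagggctg
BHLHE40: ggccagACGTGcctggagtcacagggtaga
DDIT4: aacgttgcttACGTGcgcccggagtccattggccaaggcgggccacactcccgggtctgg
PGK1: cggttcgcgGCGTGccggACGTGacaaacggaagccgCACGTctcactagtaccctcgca
ENO2: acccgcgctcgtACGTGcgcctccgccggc
ALDOC: caggcCACGCccccggaggagtCACGTagc
LDHA: gcccgactcaCACGTGggttcccgCACGTc
BNIP3 (chr10:131982014-131982073, minus strand) had the most cores in the stretches shown, and PGK1 (chrX:78104028-78104087, plus strand) had 3 separated ones. LDHA (chr11:18394466-18394495, plus strand) and BNIP3 each held the palindrome CACGTG, in which the core reads the same on both strands. The other stretches lay at chr10:73096937-73096966 on the minus strand (P4HA1), chr3:4979257-4979286 on the plus strand (BHLHE40), chr10:72273789-72273848 on the plus strand (DDIT4), chr12:6914450-6914479 on the plus strand (ENO2) and chr17:28576916-28576945 on the minus strand (ALDOC).

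After vemurafenib, most of these genes were lower than in control at collection. Of the 39 members, 33 fell, 1 rose (EGLN3) and 5 had no call (KDM3A, DDIT4, MXI1, HK2, PFKFB3). A call is a Benjamini-Hochberg adjusted p under 0.05 in edgeR's quasi-likelihood test, and over all tested genes 22.9% were called lower, 22% higher and 44.9% either way. The members' median log2 change was -1.21, against 0.01 over all tested genes. The groups did not overlap for 34 members, where 52.8% of all tested genes did not overlap. Without vemurafenib replicate 1, 34 members were called lower.

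After cisplatin the count was the same, 33 lower, with 0 higher and 6 without a call (HIF1A, EGLN3, MXI1, BHLHE40, PFKFB3, PFKFB4). Over all tested genes 23.5% were called lower, 22.7% higher and 46.3% either way. The median log2 change of the members was again -1.21, against 0.00 over all genes, and 33 members did not overlap with control, against 67% of all tested genes. Beside the 0 higher calls, PFKFB3 was the member with the highest change (log2 0.36 ± 0.19, SE, edgeR adjusted p = 0.145). Both comparisons use the same 3 control libraries, so their similarity is not independent evidence. With libraries scaled by their totals alone, the calls over all genes in the vemurafenib comparison moved from 3082 higher and 3200 lower to 3972 and 2646, and the median of all genes from 0.01 to 0.11.

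**Figure D1:**
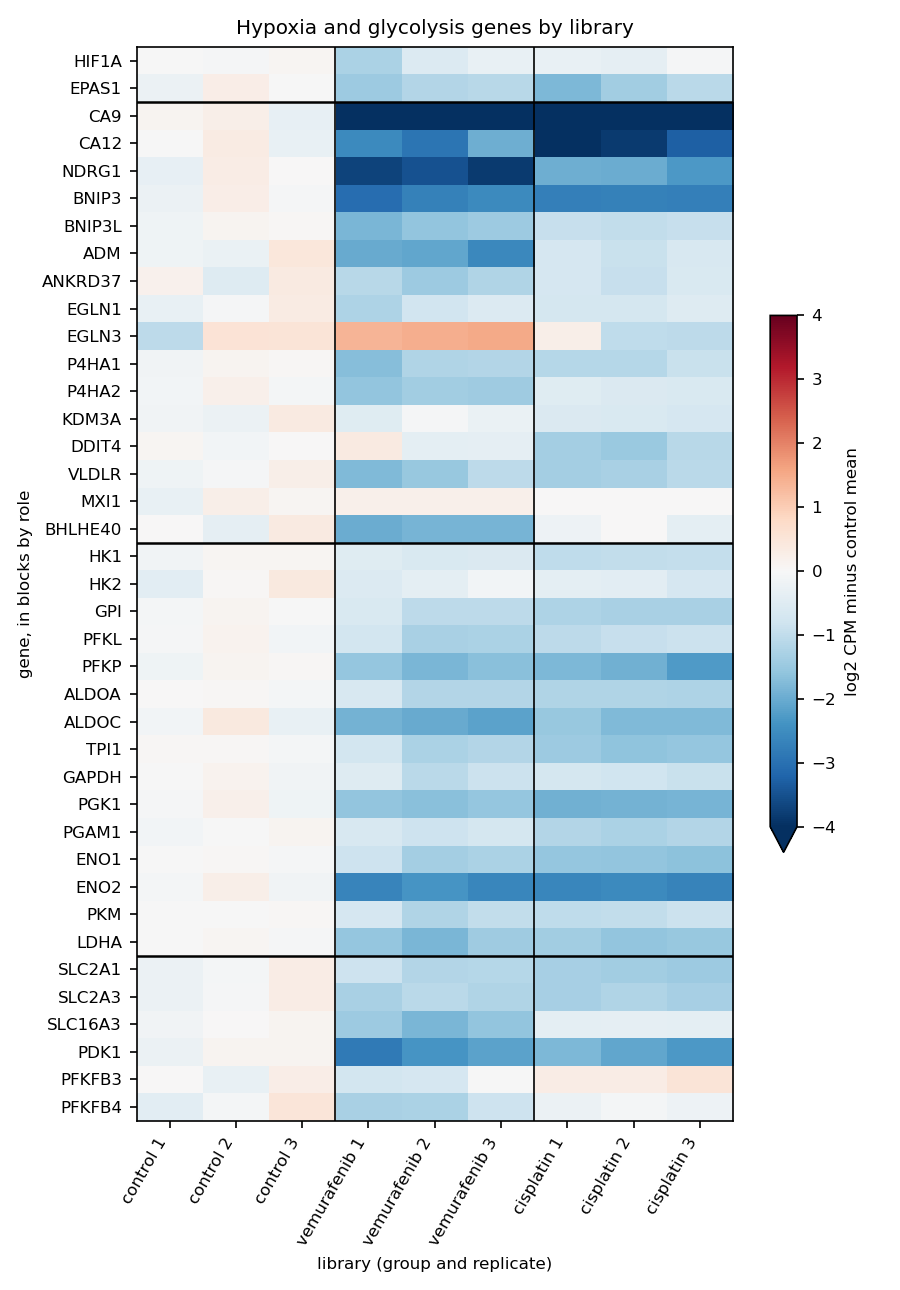
Each cell is 1 gene in 1 library, coloured by its log2 CPM minus the mean of the control libraries, with the scale clipped at -4; columns are the 3 control (ctrl), 3 vemurafenib (vem) and 3 cisplatin (cis) libraries and rows are grouped by role. The 6 drug-treated columns are below control for most rows, MXI1 shows little difference anywhere, and BHLHE40 is low in the vemurafenib columns alone.

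The mRNAs of the HIF alpha subunits themselves were lower to different degrees. HIF1A (chr14:61695513-61748258) stood at 312, 306 and 337 CPM in control, 133, 219 and 258 after vemurafenib, and 257, 247 and 306 after cisplatin. The vemurafenib libraries lay below all controls but were spread, with replicate 1 lowest, while the cisplatin libraries met the control range at 306. HIF1A fell after vemurafenib (log2 -0.65 ± 0.19, SE, edgeR adjusted p = 0.0183) and had no call after cisplatin (log2 -0.24 ± 0.19, adjusted p = 0.342). Without vemurafenib replicate 1 the first value was -0.41 and stayed called (adjusted p = 0.00615). That call was lost without control replicate 3 (adjusted p = 0.0556), with totals-only scaling (0.053) and with limma on log2(TPM + 1) (0.0833) or log2(TPM + 0.1) (0.0844), and the cisplatin value passed when vemurafenib replicate 1 was left out of the fit (0.0453) or the 2 groups were fitted alone (0.0359). EPAS1 (chr2:46297407-46386697) was at 12.2, 17.6 and 14.2 CPM in control, 5.2, 6.42 and 6.67 after vemurafenib, and 4.08, 5.43 and 6.86 after cisplatin. All 6 treated libraries were below all controls, and EPAS1 fell by 1.26 and 1.42 on the log2 scale (SE 0.21 each, edgeR adjusted p = 0.000458 and 0.000219).

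Among HIF targets outside glycolysis, 12 of 16 fell after vemurafenib and 13 of 16 after cisplatin, with median log2 changes of -1.44 and -0.87. CA9 (chr9:35673928-35681159), the carbonic anhydrase of the cell surface that is widely used as a marker of HIF activity, had the largest fall of any member. Its control libraries held 247, 272 and 184 CPM, the vemurafenib libraries 0.52, 5.11 and 2.75, and the cisplatin libraries 2.15, 2.31 and 2.8. Every treated library was at least an order of magnitude under every control. The fitted difference was 83.1-fold after vemurafenib (log2 -6.38 ± 0.44, edgeR adjusted p = 7.03e-07) and 96.6-fold after cisplatin (log2 -6.59 ± 0.45, adjusted p = 4.53e-07). The vemurafenib value was -7.14 without its replicate 2, the highest of that group, and stayed called. Some CA9 exonic bases are shared with ARHGEF39 on the opposite strand.

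CA12, a related membrane carbonic anhydrase, was scarce even in control, at 1.83, 2.32 and 1.48 CPM. It was at 0.26, 0.187 and 0.428 CPM after vemurafenib and 0, 0.0679 and 0.133 after cisplatin. The 3 groups summed to 86, 14 and 3 counts. The control-to-cisplatin ratio was 27.6 (exact 95% counting interval 9.12 to 136), and CA12 fell by 2.64 ± 0.42 on the log2 scale after vemurafenib (edgeR adjusted p = 0.000347). Few counts set the precision of both values. CA12 was tested only because its control libraries passed the filter, so its p-value is not independent support for the fall.

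NDRG1, a stress-response gene strongly induced by low oxygen, was at 549, 845 and 693 CPM in control, 52.2, 61.8 and 48.3 after vemurafenib, and 177, 172 and 141 after cisplatin. The groups were fully separated, with cisplatin between the other two. NDRG1 fell 12.9-fold after vemurafenib (log2 -3.68 ± 0.18, edgeR adjusted p = 9.28e-08) and 4.26-fold after cisplatin (log2 -2.09 ± 0.17, adjusted p = 1.77e-06). BNIP3 (chr10:131967684-131981923), a mitophagy receptor, was at 368, 523 and 414 CPM in control, 51.9, 66.2 and 73.5 after vemurafenib, and 65, 66.6 and 64.7 after cisplatin. Here the drug groups overlapped each other, and the falls were 6.81-fold (log2 -2.77 ± 0.16, adjusted p = 2.3e-07) and 6.64-fold (log2 -2.73 ± 0.16, adjusted p = 1.37e-07). ADM, which encodes the vasodilator peptide adrenomedullin, was at 8.41, 7.83 and 13 CPM in control, 2.28, 2.18 and 1.53 after vemurafenib, and 5.88, 5.09 and 6.06 after cisplatin. Its order was that of NDRG1, with log2 falls of -2.29 ± 0.25 (edgeR adjusted p = 1.97e-05) and -0.78 ± 0.22 (adjusted p = 0.0132). Leaving out control replicate 3 or cisplatin replicate 2 ended the cisplatin call for ADM (adjusted p = 0.0741 and 0.0572).

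DDIT4, BHLHE40 and EGLN3 did not fall after both drugs, nor did KDM3A and MXI1, described further on. DDIT4 (chr10:72273924-72276036), an inhibitor of the growth kinase complex mTORC1, was at 120, 107 and 116 CPM in control, 148, 87.5 and 88.1 after vemurafenib, and 44.4, 40.9 and 53.4 after cisplatin. All cisplatin libraries were below the rest, and vemurafenib replicate 1 was the highest of the 9. DDIT4 fell after cisplatin (log2 -1.31 ± 0.19, edgeR adjusted p = 0.000207) and had no call after vemurafenib (log2 -0.09 ± 0.19, adjusted p = 0.737). Without vemurafenib replicate 1 the latter was -0.38 with an adjusted p of 0.00768. BHLHE40 (chr3:4979437-4985323), a repressor of transcription in the circadian and hypoxia responses, was at 139, 107 and 179 CPM in control, 35.3, 37.9 and 38.4 after vemurafenib, and 121, 139 and 106 after cisplatin. Vemurafenib libraries were narrowly grouped below all others, while cisplatin replicates 1 and 2 lay in the control range and replicate 3 just below the lowest control. BHLHE40 fell after vemurafenib (log2 -1.93 ± 0.17, edgeR adjusted p = 4.61e-06) and had no call after cisplatin (log2 -0.22 ± 0.17, adjusted p = 0.312).

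EGLN3, the inducible HIF prolyl hydroxylase, went the other way, at very low levels. It was at 0.13, 0.531 and 0.514 CPM in control, 0.976, 1.06 and 1.1 after vemurafenib, and 0.415, 0.136 and 0.133 after cisplatin, or 18, 50 and 10 counts per group. The vemurafenib libraries were above the other 6. EGLN3 rose after vemurafenib (log2 1.40 ± 0.46, edgeR adjusted p = 0.0274), a call lost with DESeq2 (adjusted p = 0.0782) and without control replicate 1 (0.0971), vemurafenib replicate 2 (0.0593) or vemurafenib replicate 3 (0.061). Because EGLN3 passed the filter only through its vemurafenib libraries, these p-values are not independent support for the rise. Its paralog EGLN1, the main oxygen sensor, fell by 0.85 and 0.66 on the log2 scale. The EGLN1 call after cisplatin was lost without control replicate 3 (adjusted p = 0.0648) and with limma on log2(TPM + 1) (0.0554) or log2(TPM + 0.1) (0.0571).

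The remaining targets mostly fell after both drugs. P4HA1 and P4HA2, subunits of collagen prolyl hydroxylase, changed by -1.35 and -1.46 (log2) after vemurafenib and by -1.06 and -0.56 after cisplatin. The mitophagy receptor BNIP3L changed by -1.61 and -0.95, the lipoprotein receptor VLDLR by -1.42 and -1.25, and ANKRD37 by -1.31 and -0.77. The last of these cisplatin calls, for ANKRD37, was lost without control replicate 3 (edgeR adjusted p = 0.0704) or cisplatin replicate 2 (0.0592). KDM3A, a histone demethylase, was called lower after cisplatin (log2 -0.65), against -0.28 without a call after vemurafenib. The direct difference between the drugs had no call for KDM3A (log2 0.36, edgeR adjusted p = 0.0779). It gained a call under 5 of 22 alternatives. Among them were the fit without vemurafenib replicate 1 (log2 0.46, edgeR adjusted p = 0.0193) and the length trend removed (log2 0.41, limma adjusted p = 0.0197). MXI1, an antagonist of MYC, had no call, with log2 values of 0.18 and 0.00.

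Glycolysis splits glucose into pyruvate in a chain of enzymes, and lactate dehydrogenase then turns pyruvate into lactate. After vemurafenib 14 of the 15 enzymes fell, with HK2 the exception, and after cisplatin all 15 fell. Median log2 changes were -1.04 and -1.29. In TPM, the authors' normalised level that adjusts for gene length, the 15 enzymes together held 3.72% ± 0.201 (SD, n = 3) of the control transcriptome, 2.02% ± 0.131 after vemurafenib and 1.88% ± 0.0235 after cisplatin. The control libraries held 3.62%, 3.95% and 3.59%, all above the highest treated library at 2.12%. GAPDH alone was at 18581 ± 1531 TPM in control, 11248 ± 921 after vemurafenib and 11236 ± 379.9 after cisplatin. It is often used as a reference gene, and it fell by 0.81 on the log2 scale in both comparisons (SE 0.15, edgeR adjusted p = 0.00128 and 0.00117).

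ENO2, ALDOC and PFKP were among the largest falls in both comparisons. ENO2 (chr12:6914580-6923697), the enolase best known from neurons, was at 267, 330 and 253 CPM in control, 44.9, 55.3 and 46.1 after vemurafenib, and 45.9, 47.6 and 44.1 after cisplatin. The drug groups overlapped each other and lay far below control. ENO2 fell 5.8-fold (log2 -2.54 ± 0.13, edgeR adjusted p = 1.12e-07) and 6.18-fold (log2 -2.63 ± 0.13, adjusted p = 4.08e-08). ALDOC (chr17:28573120-28576895), an aldolase, was at 164, 233 and 145 CPM in control, 47.8, 43.9 and 40.3 after vemurafenib, and 61.5, 51.6 and 52.2 after cisplatin. Each treated library was below every control, with log2 changes of -2.04 ± 0.17 and -1.72 ± 0.17 (edgeR adjusted p = 2.65e-06 and 8.74e-06). PFKP (chr10:3067548-3136805), a form of phosphofructokinase, the committing step, was at 267, 325 and 309 CPM in control, 102, 84.7 and 93.3 after vemurafenib, and 86.3, 79 and 61.7 after cisplatin. The groups were again apart from control, with log2 changes of -1.69 ± 0.14 and -1.99 ± 0.14 (edgeR adjusted p = 2.65e-06 and 6.49e-07).

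Of the abundant enzymes, PGK1 (chrX:78104248-78129295), which makes ATP, was at 1877, 2200 and 1725 CPM in control, 648, 608 and 651 after vemurafenib, and 506, 514 and 536 after cisplatin. The 3 groups did not overlap, and PGK1 fell by 1.60 ± 0.11 and 1.90 ± 0.11 on the log2 scale (edgeR adjusted p = 8.53e-07 and 1.77e-07). LDHA (chr11:18394563-18408425), the lactate dehydrogenase subunit that dominates in glycolytic cells, was at 2639, 2766 and 2533 CPM in control, 907, 746 and 979 after vemurafenib, and 1005, 887 and 917 after cisplatin. The drug groups overlapped, and the falls were 3.02-fold (log2 -1.59 ± 0.12, edgeR adjusted p = 1.64e-06) and 2.83-fold (log2 -1.50 ± 0.12, adjusted p = 2.21e-06). ENO1 (chr1:8861000-8878686), the common enolase, was at 3953, 4152 and 3870 CPM in control, 2243, 1560 and 1659 after vemurafenib, and 1366, 1334 and 1276 after cisplatin. All vemurafenib libraries were above all cisplatin libraries and below all controls, with log2 changes of -1.13 ± 0.14 and -1.59 ± 0.14 (edgeR adjusted p = 5.33e-05 and 4.06e-06).

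The remaining enzymes are given by their range. After vemurafenib HK2 changed by -0.37 on the log2 scale without a call. Those with a call ran from -0.56 for HK1, the housekeeping hexokinase, to -1.07 for PFKL. Between these lay PGAM1 (-0.73), GPI (-0.90), PKM (-0.93), ALDOA (-0.97) and TPI1 (-1.04). After cisplatin the range was from -0.53 for HK2 to -1.54 for TPI1. HK2, the inducible hexokinase, overlapped control in both groups: 104, 145 and 182 CPM in control, 96.4, 107 and 130 after vemurafenib, 106, 104 and 87.8 after cisplatin. Its cisplatin call (log2 -0.53 ± 0.18, edgeR adjusted p = 0.0329) was lost under 9 of 22 alternatives, among them leaving out control replicate 2 (0.0814), control replicate 3 (0.178) or any of cisplatin replicates 1 to 3 (0.056, 0.0686 and 0.12), and its vemurafenib value passed without control replicate 1 (0.0189).

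**Figure D2:**
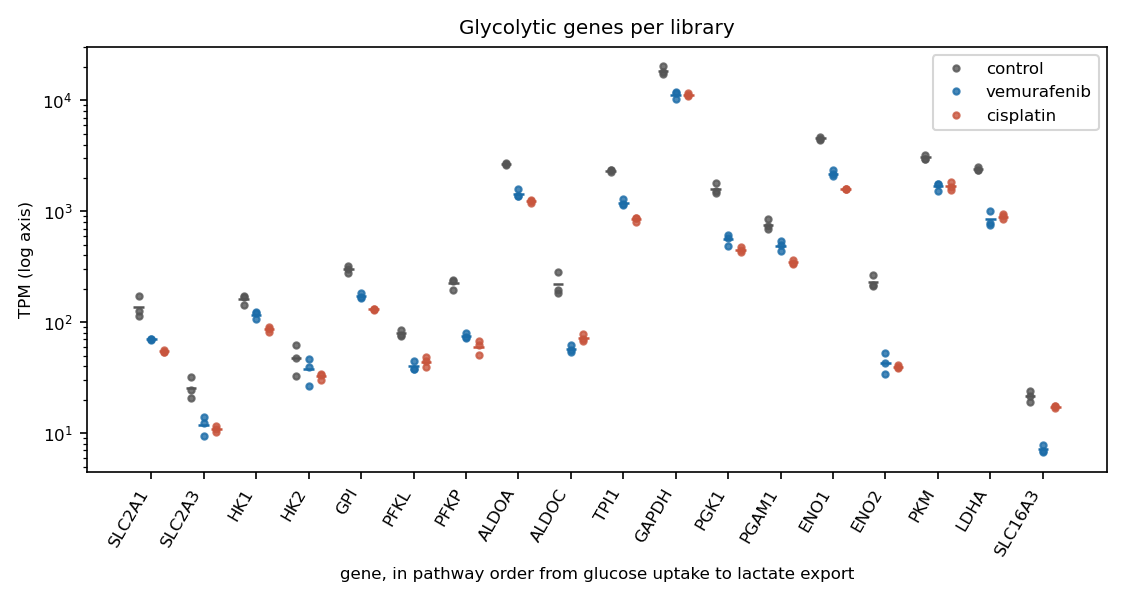
TPM per library on a log axis for the transporters and enzymes in pathway order from glucose uptake to lactate export, with points for single libraries and a dash for the group mean. Control points lie above both drug groups at most steps, HK2 overlaps, and SLC16A3 after cisplatin (17.4 ± 0.465 TPM, mean ± SD) sits nearer to control (21.6 ± 2.41) than to vemurafenib (7.19 ± 0.603).

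Transporters and switches of flux followed, with 5 of 6 lower after vemurafenib and 4 of 6 after cisplatin (median log2 -1.19 and -0.84). PDK1 (chr2:172555373-172724312) encodes a kinase that inhibits pyruvate dehydrogenase and so limits the entry of pyruvate into the TCA cycle. PDK1 was at 71.7, 90.7 and 90.5 CPM in control, 11.7, 16.4 and 19 after vemurafenib, and 24.1, 19.7 and 16.9 after cisplatin. Treated libraries lay well under control, with falls of 5.36-fold (log2 -2.42 ± 0.19, edgeR adjusted p = 1.8e-06) and 4.16-fold (log2 -2.06 ± 0.19, adjusted p = 5.03e-06). The glucose transporter SLC2A1 (GLUT1) was at 218, 241 and 314 CPM in control, 143, 113 and 115 after vemurafenib, and 102, 96.7 and 92.9 after cisplatin. Its groups did not overlap, and it changed by -1.06 ± 0.15 and -1.41 ± 0.15 (log2, edgeR adjusted p = 0.000122 and 1.57e-05). SLC2A3 (GLUT3) was at 43.1, 49.5 and 62.6 CPM in control, 20.6, 24.4 and 22.1 after vemurafenib, and 20.2, 22.4 and 20.2 after cisplatin. The drug groups overlapped each other, with log2 changes of -1.21 ± 0.14 and -1.31 ± 0.14 (edgeR adjusted p = 4.01e-05 and 2.44e-05).

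The lactate exporter SLC16A3 (MCT4) was at 20.1, 22.4 and 23.9 CPM in control, 8.06, 6.11 and 7.4 after vemurafenib, and 16.9, 17.2 and 16.8 after cisplatin. The cisplatin libraries sat just under control and the vemurafenib libraries far below. SLC16A3 fell 3.08-fold after vemurafenib (log2 -1.62 ± 0.14, edgeR adjusted p = 3.3e-06). Its small cisplatin change (log2 -0.38 ± 0.13, adjusted p = 0.0324) lost its call under 12 of 22 alternatives, among them leaving out control replicate 2 or 3 (0.0826 and 0.129) or any cisplatin library (0.0845 to 0.0864). PFKFB3 and PFKFB4 set the level of fructose 2,6-bisphosphate, the activator of phosphofructokinase. PFKFB4 was at 205, 258 and 386 CPM in control, 111, 114 and 154 after vemurafenib, and 234, 261 and 237 after cisplatin, falling by 1.17 ± 0.21 (log2, edgeR adjusted p = 0.000745) after vemurafenib, with -0.21 ± 0.20 (adjusted p = 0.413) after cisplatin. PFKFB3 was at 92.3, 74.3 and 111 CPM in control, 55, 56.7 and 89.5 after vemurafenib, and 111, 113 and 132 after cisplatin. Vemurafenib libraries overlapped control, and the change (log2 -0.46 ± 0.19, edgeR adjusted p = 0.0717) passed with replicate number as a block (-0.48, adjusted p = 0.00971). It also passed without control replicate 2 (0.0432) or vemurafenib replicate 3 (0.00346).

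**Figure D3:**
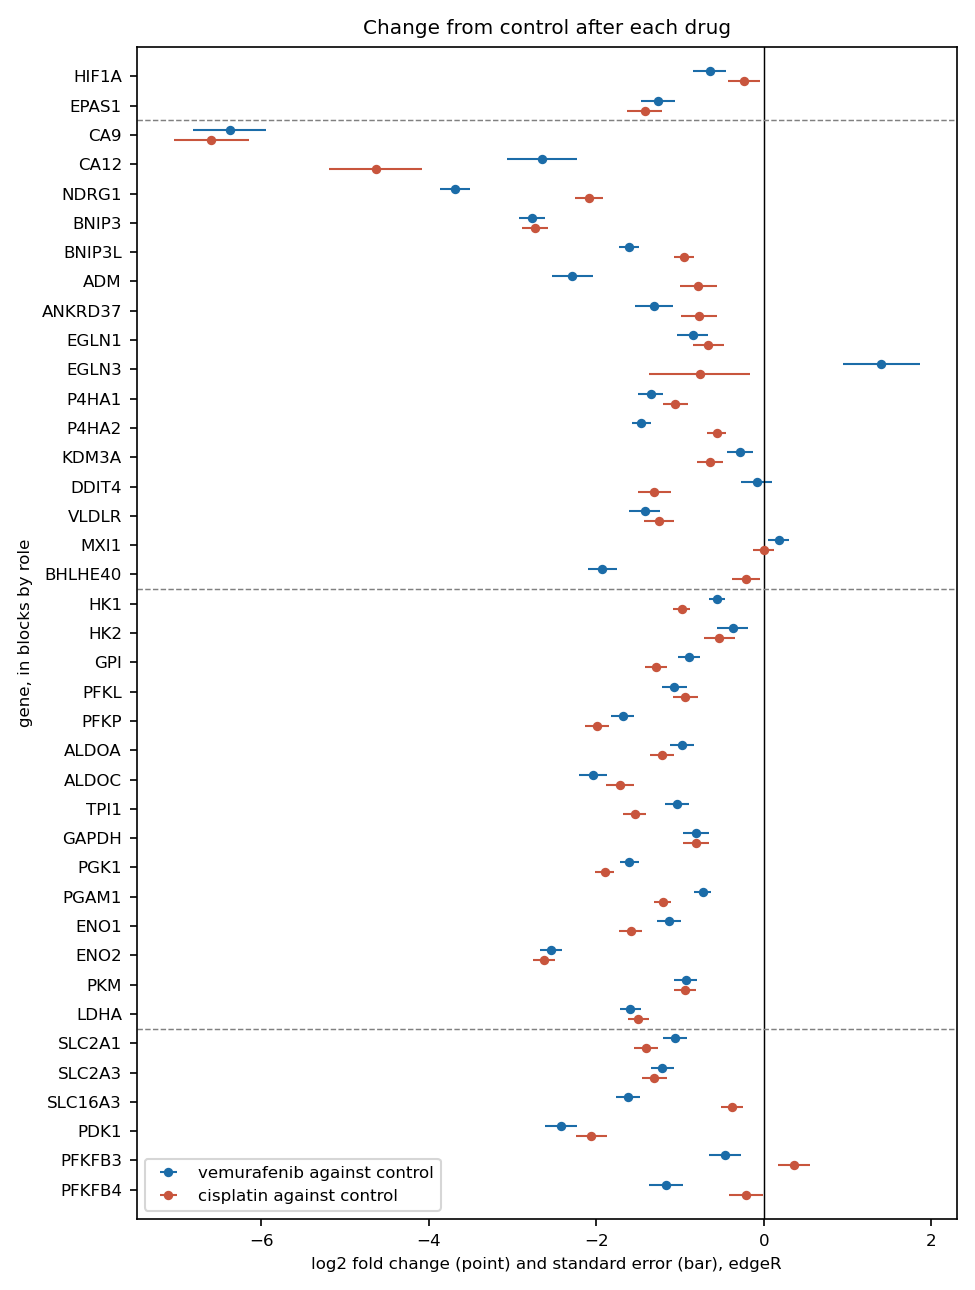
Log2 fold change from control of each of the 39 genes, with the standard error as a bar, for vemurafenib and cisplatin (edgeR), grouped by role. Most points lie left of 0 in both comparisons, CA9 reaches -6.38 and -6.59, and BHLHE40, SLC16A3, NDRG1, ADM and DDIT4 are among the genes whose points for the drugs lie apart.

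HIF targets outside glycolysis and glycolytic enzymes were then set side by side. After vemurafenib the median of the targets was 0.41 log2 units further down (-1.44 against -1.04), and after cisplatin the enzymes were further down by about the same (-0.87 against -1.29, a difference of 0.42). Per library, the targets' median relative to the control mean was -1.73, -1.48 and -1.32 in vemurafenib replicates 1 to 3 and -0.81, -1.002 and -0.91 in cisplatin. For the enzymes it was -0.72, -1.25 and -1.18 in vemurafenib and -1.24, -1.31 and -1.31 in cisplatin. The targets' median was thus lower in all 3 vemurafenib libraries than in any cisplatin library, while the enzymes' medians were separated mainly by vemurafenib replicate 1. Taken gene by gene, the median log2 difference of vemurafenib from cisplatin was smaller for the targets, at -0.18, and 0.24 for the enzymes. Without vemurafenib replicate 1 the vemurafenib difference between targets and enzymes was -0.18, and with the length trend removed from every library (limma) it was -0.33, against 0.45 after cisplatin. The cisplatin difference was 0.25 without control replicate 1 and 0.28 without control replicate 2. The targets also had the wider spread, from -6.38 to 1.40 after vemurafenib against -2.54 to -0.37 in the enzymes. As a share of all TPM the targets went from 0.207% ± 0.0236 in control to 0.0565% ± 0.00733 after vemurafenib and 0.0693% ± 0.00134 after cisplatin (SD, n = 3).

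Tested directly against each other, the 2 drug schedules left 23 of 39 members without a call, 8 higher after vemurafenib and 8 lower, where 23% of all tested genes were called higher, 20.8% lower and 43.7% either way. The drug groups did not overlap for 24 members, against 54% of all tested genes. The members' median log2 difference was 0.01. A missing call does not show equal levels. By role, 5 of the 16 targets were lower after vemurafenib (NDRG1, BNIP3L, ADM, P4HA2, BHLHE40) and 2 higher (EGLN3, DDIT4). The differences were -1.59 ± 0.17 for NDRG1, -1.72 ± 0.17 for BHLHE40 and -1.51 ± 0.25 for ADM (log2, edgeR adjusted p = 1.45e-05, 1.05e-05 and 0.00052). DDIT4 was higher by 1.22 ± 0.19 (edgeR adjusted p = 0.000326), or 0.93 without vemurafenib replicate 1, and EGLN3 by 2.17 ± 0.51 (adjusted p = 0.00521). The EGLN3 value has the same limit from the filter as its rise above control.

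Of the enzymes 6 were higher after vemurafenib than after cisplatin and 0 lower. They were HK1 (0.43), GPI (0.39), TPI1 (0.51), PGK1 (0.29), PGAM1 (0.48) and ENO1 (0.46 log2 units). Vemurafenib replicate 1 was the highest of its group in 5 of these 6, and without it all 6 kept their calls, at 0.39, 0.23, 0.32, 0.28, 0.44 and 0.28, while PFKL was then called lower. With the length trend removed, 6 enzymes were called higher and 1, ALDOC, lower. The count fell to 2 without cisplatin replicate 2 and to 3 without cisplatin replicate 3. PGK1 was at the edge of the threshold (edgeR adjusted p = 0.0498, range 0.0235 to 0.136 over the alternatives). The flux switches PFKFB3 (-0.82) and PFKFB4 (-0.95) and the exporter SLC16A3 (-1.24) were lower after vemurafenib.

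**Figure D4:**
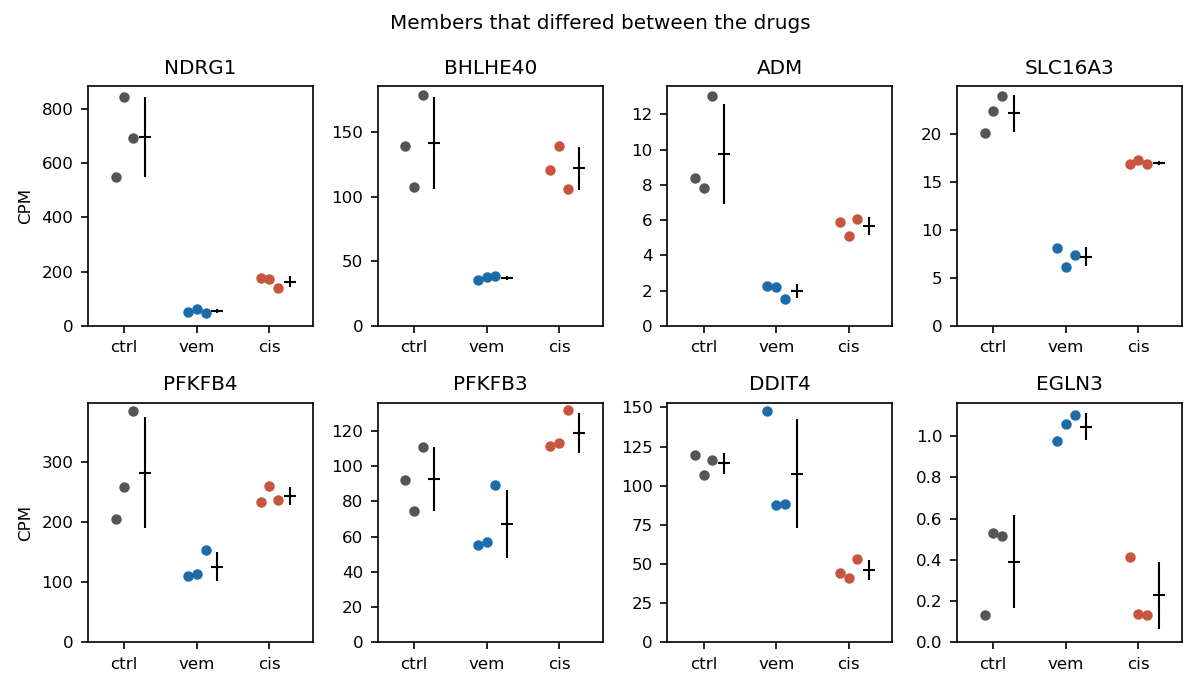
CPM per library of 8 genes with a call between the drugs, chosen after their values were seen, in control (ctrl), vemurafenib (vem) and cisplatin (cis), as points with the mean and SD beside them and axes starting at 0. NDRG1, ADM and SLC16A3 are lowest after vemurafenib, PFKFB4 after cisplatin lies in the control range and BHLHE40 after cisplatin overlaps it, DDIT4 is lowest after cisplatin, and EGLN3 is under 1.2 CPM throughout.

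Several of these genes come in pairs of related genes, and the make-up of the pairs differed between groups. The share of the pair's TPM is given as a description, in mean ± SD over 3 libraries. ENO2 held 4.86% ± 0.496 of enolase TPM (ENO1 and ENO2) in control, 1.96% ± 0.536 after vemurafenib and 2.44% ± 0.0704 after cisplatin. ALDOC held 7.56% ± 1.56 of ALDOA and ALDOC, then 3.86% ± 0.556 and 5.49% ± 0.538. PFKP held 73.8% ± 1.83 of PFKL and PFKP, then 65.1% ± 2.99 and 57.4% ± 5.98. In each of these pairs no treated library reached the lowest control library. The mitophagy receptors moved the other way in share, since BNIP3 fell further than BNIP3L, and BNIP3L held 14.7% ± 1.28, 27.7% ± 0.95 and 36.9% ± 0.929. P4HA2 held 52.8% ± 2.09 of its pair in control and 51% ± 3.29 after vemurafenib, which overlapped, and 61.9% ± 3 after cisplatin, which did not. The shares of HK2 (22.4% ± 3.87, 24% ± 3.72 and 27.3% ± 2.03) and SLC2A3 (15.7% ± 0.259, 14.6% ± 2.53 and 16.7% ± 1.09) overlapped between each drug group and control.

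**Figure D5:**
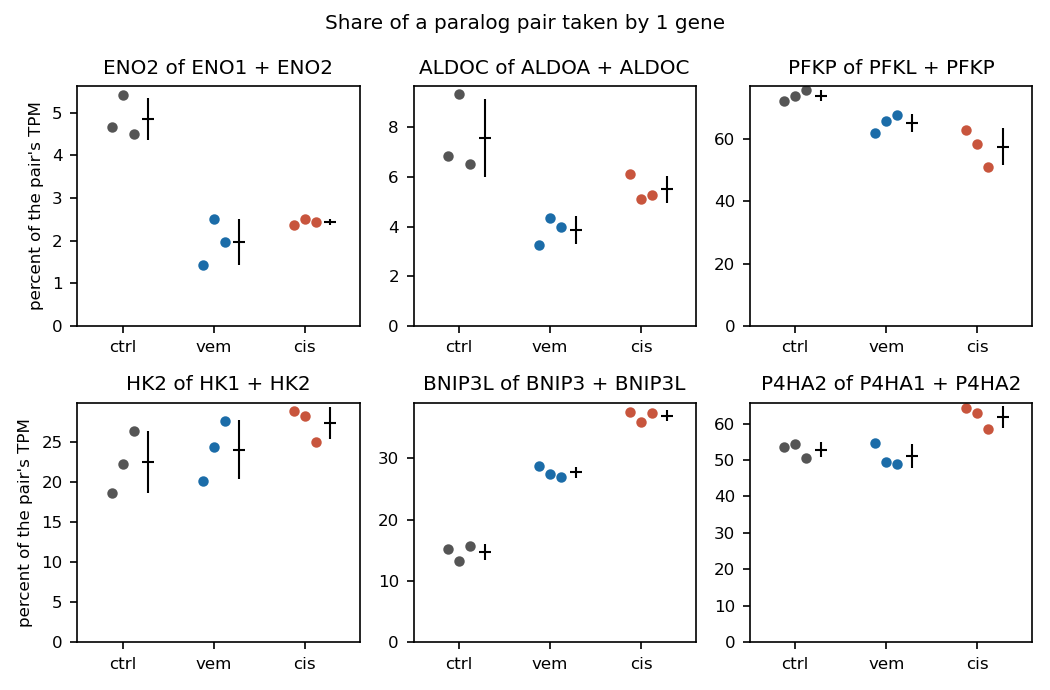
Percent of a pair's summed TPM that came from 1 gene, for 6 pairs chosen after their values were seen, with points for the libraries of control (ctrl), vemurafenib (vem) and cisplatin (cis) and the mean and SD beside them. ENO2, ALDOC and PFKP take a smaller share after both drugs (ENO2 4.86% in control, 1.96% and 2.44% after treatment), while BNIP3L takes a larger one.

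The wider pathway was read from lists of other genes. Of 21 tested further HIF targets, 19 fell after vemurafenib and 0 rose (median log2 -1.26), and 15 fell and 1 rose after cisplatin (median -1.04). Over all tested genes 22.9% were called lower and 22% higher after vemurafenib, and 23.5% and 22.7% after cisplatin. PPFIA4 changed by -2.81 ± 0.27 and -2.96 ± 0.27 (log2, edgeR adjusted p = 8.12e-06 and 6e-06), and the secreted glycoprotein STC2 by -0.95 and -2.06. The chemokine receptor CXCR4 had 16 counts in control, 0 after vemurafenib and 39 after cisplatin. With the vemurafenib group set to a floor of 3 counts, it was 5.54-fold lower than in control. That value takes the control counts as exact, leaving out their counting error and spread, and most of them came from replicate 3. The list's median is the same with CXCR4 at that value. TMEM45A fell by 1.79 (log2) after cisplatin, and the nuclear receptor RORA was lower after vemurafenib than after cisplatin by 3.00 ± 0.24.

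Genes of the oxygen-sensing machinery moved less. Of 12 tested, 1 rose and 3 fell after vemurafenib, and 1 rose and 2 fell after cisplatin. These counts are near or under the shares over all tested genes, which were 22% higher and 22.9% lower after vemurafenib and 22.7% and 23.5% after cisplatin. ARNT2, a HIF partner, fell by 1.29 ± 0.15 after vemurafenib (log2, edgeR adjusted p = 3.95e-05), ELOB rose by 0.49, and VHL, the ubiquitin ligase subunit that recognises hydroxylated HIF, fell by 0.45 and 0.48 in the 2 comparisons. After cisplatin RBX1 fell by 0.52 and HIF1AN, the asparagine hydroxylase of HIF, rose by 0.43.

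Of 15 tested other isozymes and side branches of sugar metabolism, 4 were called higher and 3 lower after vemurafenib, and 6 higher and 4 lower after cisplatin. The vemurafenib counts are near the shares over all tested genes (22% higher and 22.9% lower), and after cisplatin those shares were 22.7% and 23.5%. HKDC1, a hexokinase-related gene, was at 2.87, 2.92 and 4.3 CPM in control, 36, 33.9 and 25.9 after vemurafenib, and 5.54, 5.77 and 12.9 after cisplatin. It rose by 3.24 ± 0.32 on the log2 scale after vemurafenib (edgeR adjusted p = 9.31e-06). TIGAR, a p53-induced phosphatase that lowers fructose 2,6-bisphosphate, rose by 1.55 ± 0.11 after cisplatin (adjusted p = 6.34e-07), PFKFB2 rose by 1.37, and SLC2A12 and PGM1 changed by -1.62 and -1.501 after vemurafenib.

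Of 31 genes of pyruvate entry and the TCA cycle, 7 rose and 5 fell after vemurafenib (median log2 -0.01), and 6 rose and 9 fell after cisplatin (median -0.07), again near the shares over all tested genes. Between the drugs 13 were higher and 4 lower after vemurafenib, where 23% and 20.8% of all tested genes were. PDK4, a paralog of PDK1 with the same substrate, was at 40.4, 46.7 and 39.8 CPM in control, 7.61, 20.6 and 14.5 after vemurafenib, and 85.9, 109 and 91.2 after cisplatin. The 3 groups did not overlap: PDK4 fell by 1.57 ± 0.26 after vemurafenib and rose by 1.17 ± 0.25 after cisplatin (log2, edgeR adjusted p = 0.000491 and 0.00234). PDK3 fell by 0.93 after cisplatin, PDP1, a phosphatase that opposes these kinases, fell by 0.86 and 0.79, and the mitochondrial coactivator PPARGC1A fell by 1.94 after vemurafenib.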

How the data were processed

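Total RNA of 9 A375 samples was reverse transcribed with random hexamers and sequenced, per the labels' protocols. The submitters' processing notes name HISAT2 2.0.4 and hg38. Which tool counted the reads, and on which annotation, is not given in the sources used here.

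Estimated counts, TPM and FPKM per gene were deposited by the authors, so named per the file headers. Of the estimated counts in a library 13.6% to 14.1% were not whole (tolerance 1e-06). In 9 members the count was not whole in some library, in all 9 libraries for ANKRD37, P4HA2, GPI, SLC16A3 and PFKFB4. How reads shared between genes were counted is unknown here. Counts were rounded to whole numbers. Abundant glycolytic genes have processed pseudogene copies, and their split is uncertain. Of the members 20 share exonic bases with a gene on the opposite strand and 8 with another on the same strand (GENCODE 29); no label says that strand was marked. Coordinates and promoters came from RefSeq GRCh38.p14. Proteins were not analysed here.

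Groups were compared in 1 edgeR 4.0.16 fit of all 9 libraries (R 4.3.3, filterByExpr, TMM, quasi-likelihood F test, two-sided, 6 residual degrees of freedom, Benjamini-Hochberg over all 13989 genes, threshold 0.05; biological coefficient of variation 0.139). A log2 error (SE) is the size of the log2 change divided by the square root of the F statistic of its test. CPM uses TMM-scaled totals. DESeq2 1.42.0 and limma 3.58.1 on log2(TPM + 1), log2(TPM + 0.1) and log2(FPKM + 1) were among 22 alternatives. The fit was also tested on simulated counts, and its recovery criterion was limited to genes past the low-count filter after it first failed on genes that the filter removed. Floors are 3 counts over a group, and counting intervals are exact binomial and cover counting error only.

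Deviations of same-numbered vemurafenib and control libraries from their group means correlated across genes (r = 0.162, 0.131 and 0.171). For cisplatin and control r was 0.187, 0.088 and 0.126, and for vemurafenib and cisplatin 0.159, 0.020 and 0.090. Between libraries of unlike number, r was -0.153 to -0.019 for vemurafenib and control and -0.162 to 0.037 for cisplatin and control. For vemurafenib and cisplatin it was -0.152 to 0.128. The labels do not state a pairing, and the main fit used none. Replicate number entered as a block only in alternative fits, where it covered the libraries of all 3 groups. No libraries were duplicates: chi-square per gene between replicates was 4.65 to 57.0.

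The members and gene lists were chosen with earlier results of these data known. The named genes were all 39 members, with values in every library for the subunits and for the 5 largest changes by size per role and comparison, and, of the other lists, called genes with the 3 largest changes, of which 1 is not reported here.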

Additional observations from a re-analysis of the deposited data

How the results depend on the processing

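No call of a member changed direction under any of the 22 alternatives. Calls were kept under every alternative that tested the gene for 32 members after vemurafenib, 28 after cisplatin and 12 between the drugs. Counts of members called lower ranged from 32 to 34 after vemurafenib and 28 to 34 after cisplatin. The single rise after vemurafenib (EGLN3, among all members and among HIF targets) was a count of 0 with DESeq2, where the gene missed the threshold, 0 with a filter of 1 CPM, which removed the gene, and 0 to 1 with 1 library left out. Members called higher after cisplatin (0) became 1, PFKFB3, with the 2 groups alone, with the replicate block and with length trend removal plus block. The cisplatin difference in median between HIF targets and enzymes (0.42) was 0.34 with the 1 CPM filter, 0.34 with the 2 groups alone, 0.61 on FPKM and 0.25 to 0.54 with 1 library left out. The vemurafenib difference ranged from -0.60 to -0.18 and that between the drugs from -0.65 to -0.25 with 1 library left out; the last was -0.25 without vemurafenib replicate 1, -0.65 without vemurafenib replicate 3 and -0.28 without cisplatin replicate 3.

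Between the drugs, members called higher after vemurafenib (8) were 5 with the 2 groups alone and 4 to 9 with 1 library left out, 4 without cisplatin replicate 2. Members called lower (8) ranged from 8 to 12 over the alternatives, and HIF targets called lower (5) from 5 to 7. Enzymes called higher (6) were 3 with the 2 groups alone and 2 to 6 with 1 library left out. Enzymes called lower (0) were 1 with the length trend removed, with or without the replicate block, and 0 to 1 with 1 library left out. HIF targets called higher (2) were 1 with the 1 CPM filter, 4 with the length trend removed, with or without block, and 2 to 3 with 1 library left out. Beyond the counts named here, the cause of these moves was not tested. GPI lost its call without control replicate 3 (edgeR adjusted p = 0.0553) or any cisplatin library (0.0602, 0.0907 and 0.082), ENO1 without cisplatin replicate 2 or 3 (0.0574 and 0.0609) and TPI1 without cisplatin replicate 2 (0.0527). Apart from PFKFB3, the block changed no member's call in the vemurafenib comparison. The promoter count with ACGTG alone was 15 of 36. Depth limits CA12, EGLN3 and CXCR4, which had 86 counts or fewer per group.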
